A study of Homo sapiens with 6 samples.

Results

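The genes of 10 Krüppel-like factors and specificity proteins, KLF2, KLF3, KLF4, KLF5, KLF6, KLF9, KLF10, SP1, SP3 and SP4, were examined for chromatin accessibility in HLF, a cell line derived from a human liver cancer. They are 10 of 20033 protein-coding genes in the annotation used (GENCODE release 44, hg38). Accessible sites were assigned to them where they overlapped 1 kb to either side of an annotated start, the gene body or 50 kb to either side of it. This gave 119 of the 166021 sites found in any of the 6 ATAC-seq libraries, a method in which the Tn5 transposase cuts and tags open chromatin. In 3 libraries the cells had received the vehicle DMSO and in 3 they had received 5 μM SNDX-5613 (revumenib), a small molecule that blocks the binding of menin to the MLL1 histone methyltransferase. Both groups were unmodified HLF cells and carried the same batch label. The labels give 24 hours of treatment for both groups, whereas the study's methods describe a longer exposure, so that the duration is uncertain. The study's methods describe a replicate as 1 dish divided between the treated and the untreated group, and the labels number the libraries 1 to 3 in each group without saying that a number marks a dish.

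KLF and SP factors share a C-terminal DNA-binding domain of zinc fingers that recognizes GC-rich and CACCC-type sequences, which are frequent in promoters. SP1, SP3 and SP4 are widely used regulators at GC boxes, where SP1 mostly activates and SP3 can activate or repress. Among the KLF genes, KLF2, KLF4, KLF6 and KLF10 are rapidly inducible, KLF3 is a repressor that works with CtBP, KLF5 is a pro-proliferative factor of epithelial cells, and KLF9 responds to glucocorticoid and thyroid hormone. In liver, KLF6 is known from stellate cells and hepatocytes, and KLF10 from the response to TGF-β.

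Each library's peak list gave between 88026 and 113675 regions in DMSO, and 107347, 96910 and 40568 regions in SNDX-5613 replicates 1, 2 and 3. The last library was shallower, since its background pileup, as solved from the peak statistics, was 16.17% of the median of the other 5. Its weakest called summits stood 14.22 times above background, compared with 4.598 to 6.018 times in the others. Of the markers checked, the mesenchymal genes VIM, ZEB1, CDH2 and FN1 and the epithelial genes CDH1 and EPCAM had a promoter peak in all 6 libraries. None of the 5 hepatocyte genes did. ALB, APOA1 and HNF4A had no promoter peak in any library, SERPINA1 had one in 1 library of each group, and TTR had one in 3 DMSO and 2 SNDX-5613 libraries. The leukocyte genes PTPRC and CD3E had none, nor had endothelial PECAM1, and CDH5 had one in 1 DMSO library.

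The sequences around the sites on which the results turn are shown first, as 201 bases centred on the summit from the plus strand of hg38. Capitals mark every match to the SP motif GGGGCGGGG, the KLF motif GGGTGTGG or the NF-Y motif CCAAT on either strand. The promoter sites of KLF5 and KLF3 are shown because SNDX-5613 libraries lay below DMSO there, and those of KLF6 and SP1 because they were among the most accessible. The other 2 are the distal sites of KLF6 with the widest differences in either direction in the 5 deeper libraries. None of these windows overlapped an annotated exon of a protein-coding gene.
KLF5 promoter, chr13:73058765-73058965: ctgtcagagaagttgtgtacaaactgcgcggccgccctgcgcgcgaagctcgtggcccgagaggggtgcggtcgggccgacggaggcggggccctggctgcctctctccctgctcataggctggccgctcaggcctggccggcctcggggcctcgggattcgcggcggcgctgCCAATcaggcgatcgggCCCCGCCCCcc
KLF3 promoter, chr4:38663993-38664193: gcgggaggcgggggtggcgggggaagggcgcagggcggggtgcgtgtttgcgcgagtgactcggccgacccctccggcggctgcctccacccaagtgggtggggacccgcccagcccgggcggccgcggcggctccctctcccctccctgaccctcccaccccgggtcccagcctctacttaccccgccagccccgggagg
KLF6 promoter, chr10:3785319-3785519: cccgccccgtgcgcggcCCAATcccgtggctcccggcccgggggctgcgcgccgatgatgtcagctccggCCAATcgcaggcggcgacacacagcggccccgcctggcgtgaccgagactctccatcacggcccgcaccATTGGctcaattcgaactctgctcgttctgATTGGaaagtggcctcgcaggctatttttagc
SP1 promoter, chr12:53379842-53380042: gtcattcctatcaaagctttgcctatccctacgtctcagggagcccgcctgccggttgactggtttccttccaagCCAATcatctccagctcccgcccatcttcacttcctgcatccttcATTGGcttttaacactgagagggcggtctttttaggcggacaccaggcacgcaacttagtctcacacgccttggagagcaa
KLF6 far upstream site, chr10:3825300-3825500: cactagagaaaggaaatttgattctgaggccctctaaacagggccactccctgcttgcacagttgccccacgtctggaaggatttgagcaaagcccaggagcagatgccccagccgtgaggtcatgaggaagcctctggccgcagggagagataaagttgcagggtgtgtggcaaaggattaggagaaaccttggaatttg
KLF6 nearer upstream site, chr10:3807409-3807609: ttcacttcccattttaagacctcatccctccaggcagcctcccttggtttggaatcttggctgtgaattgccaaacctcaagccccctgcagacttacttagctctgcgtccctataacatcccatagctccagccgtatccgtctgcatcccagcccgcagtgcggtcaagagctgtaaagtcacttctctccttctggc

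The KLF6 promoter summit held 4 CCAAT matches in its window and the SP1 promoter summit 2, on both strands in each case. The KLF5 window held 1 CCAAT and, on the minus strand, 1 SP match, whereas the KLF3 window, with a GC content of 78.6%, held no exact match to the 3 motifs. Near matches were not counted, and this window holds agggcgggg, which differs from the SP motif in its first letter. Over the 119 sites, the SP motif was found in 5 (4.202%) compared with 3.351% of all sites, CCAAT in 28 (23.53%) compared with 24.33%, and the KLF motif in 2 (1.681%) compared with 2.441%. In RefSeq promoters (GRCh38.p14, 300 bases, from 250 before to 50 after the start), 8 of the 10 genes matched, with 12 entries. Of these, 5 held the SP motif, against 15.68% of 35116 promoters, 7 held CCAAT, against 34.61%, and 0 held the KLF motif, against 3.278%. The SP matches were at KLF2, KLF4, KLF5, SP1 and SP4. A match is a run of letters and does not show that a factor was bound.

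The accessible sites were unevenly shared out. KLF6, an immediate early gene and tumor suppressor, had 24 sites, KLF3 had 19, SP1 had 17, KLF10 had 14 and KLF2, the flow-responsive factor of endothelium, had 13. KLF5 and KLF9 had 8 each, SP3 had 7, SP4 had 5 and KLF4, one of the pluripotency factors, had 4. By position, 17 sites were at promoters, 16 in gene bodies and 86 in the flanks, and 13, 3 and 19 of them respectively had a peak in all 6 libraries. The member was the nearest protein-coding gene for 96 of the 119 sites, but for only 3 of the 17 at SP1. Promoters of other coding genes accounted for 5 sites, at SP7 in 2 cases, PRR13 and PCBP2 near SP1, and DNAH11 near SP4.

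**Figure D1:**
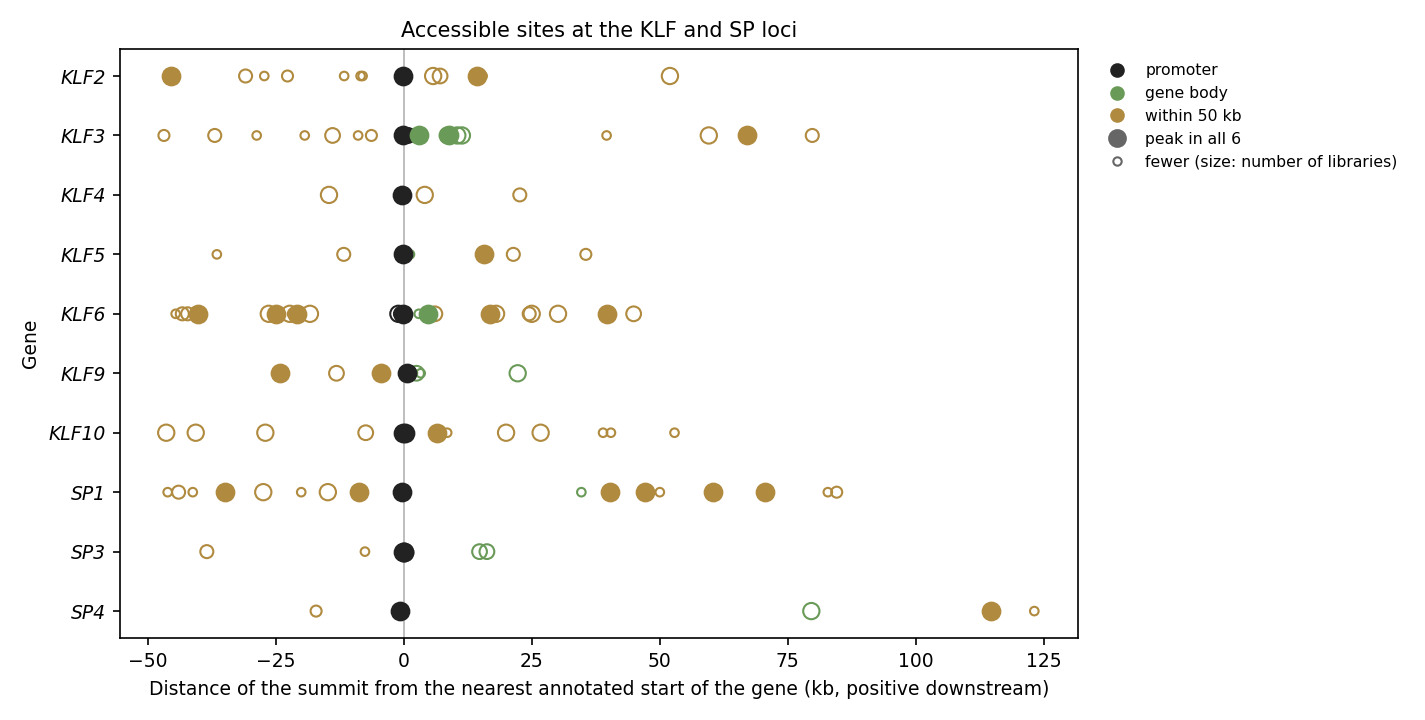
Sites of the 10 genes by distance of the summit from the nearest annotated start of the gene (kb, x axis), 1 row per gene, colored by location. Filled points have a peak in all 6 libraries and open points in fewer, with size giving the number of libraries. KLF6 carries 24 sites on both sides of its start and KLF4 carries 4.

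In single libraries, 74, 96 and 84 of these sites had a peak in DMSO and 85, 76 and 38 in SNDX-5613. The low count was in the shallow SNDX-5613 replicate 3, which lacked a peak at 24 sites where the 5 deeper libraries all had one. A further 30 sites had a peak in 1 library. In all 6 libraries a peak was found at 35 of the 119 sites, compared with 20.1% of all sites.

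All 10 genes had a promoter peak in every library, as did 64.8% of protein-coding genes (64.4% had 1 promoter site that all 6 libraries shared). When each library was reduced to its 40568 strongest regions, all 10 kept one, as did 61.4% of coding genes. To compare libraries of different depth, the statistic of each peak (−log10 p of its strongest summit) was ranked within its library among the 33405 sites shared by all 6, giving a percentile from 0 to 100. For each gene, the promoter site with the highest mean percentile was taken as its lead promoter site. Summit height is also given where a result turns on it, as the pileup of tagged fragments at the summit divided by that library's median over the 33405 sites.

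The lead promoters of SP4 and SP1 were the most accessible. SP4, a factor best known from neurons, had percentiles of 91.95, 94.3 and 95.9 in DMSO and 94.4, 93.5 and 90.6 in SNDX-5613. At SP1 they were 87.2, 92.6 and 92.3 in DMSO and 96.2, 91.5 and 94.2 in SNDX-5613. In both the groups overlapped, and these sites exceeded 83.6% and 80.0% of the 12911 protein-coding lead promoters, respectively. In height, SP1 stood at 4.78 ± 0.40 (SD, n = 3) times the library median in DMSO and 4.97 ± 0.31 in SNDX-5613, and SP4 at 4.81 ± 0.29 and 4.48 ± 0.25. SP3, whose product competes with SP1 for GC boxes, was lower, at 72.8, 78.9 and 72.7 in DMSO and 77.9, 69.1 and 79.2 in SNDX-5613, and the groups overlapped. A second SP3 promoter site, 146 bp from a start (chr2:173963472-173964563), had 54.5, 59.4 and 44.3 in DMSO and 37.9, 47.5 and 27.5 in SNDX-5613. Its mean difference of -15.11 points was the widest at the 35 sites of these genes that all 6 libraries shared, but the groups overlapped. This site did not pass the test over all sites (adjusted p = 0.529, limma, and 0.51 with the replicate number as a block). SNDX-5613 lay below the same-numbered DMSO library in 3 of 3 pairs. The same held at 6 of the 35 sites, this one included, and at 8 it lay above in 3 of 3 pairs.

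KLF6 and KLF5 led the KLF genes. The KLF6 lead promoter had 79.4, 85.3 and 88.8 in DMSO and 89.9, 85.7 and 84.1 in SNDX-5613, an overlapping pair of groups with a mean difference of 2.07 points. At KLF10, a TGF-β-inducible repressor, values were 68.2, 72.6 and 65.2 in DMSO and 70.0, 77.8 and 55.7 in SNDX-5613, where the lowest was the shallow library. KLF3, KLF2, KLF4 and KLF9 lay lower, and their lead promoters exceeded 17.3% to 19.9% of coding lead promoters. KLF2 had 48.9, 56.2 and 61.6 in DMSO and 56.8, 59.7 and 64.8 in SNDX-5613. KLF4 had 51.7, 58.03 and 54.1 in DMSO and 61.1, 61.8 and 42.8 in SNDX-5613, so that the 2 deeper SNDX-5613 libraries lay above DMSO and the shallow one below it. KLF9 had 48.8, 47.5 and 53.5 in DMSO and 56.0, 51.1 and 67.0 in SNDX-5613. Its groups overlapped, with a mean difference of 8.12 points, and the shallow library held the highest of its values. Without that library the difference was 2.77. That ranking was among the 59985 sites shared by the 5 deeper libraries, where its DMSO mean was 70.6 in place of 49.9.

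**Figure D2:**
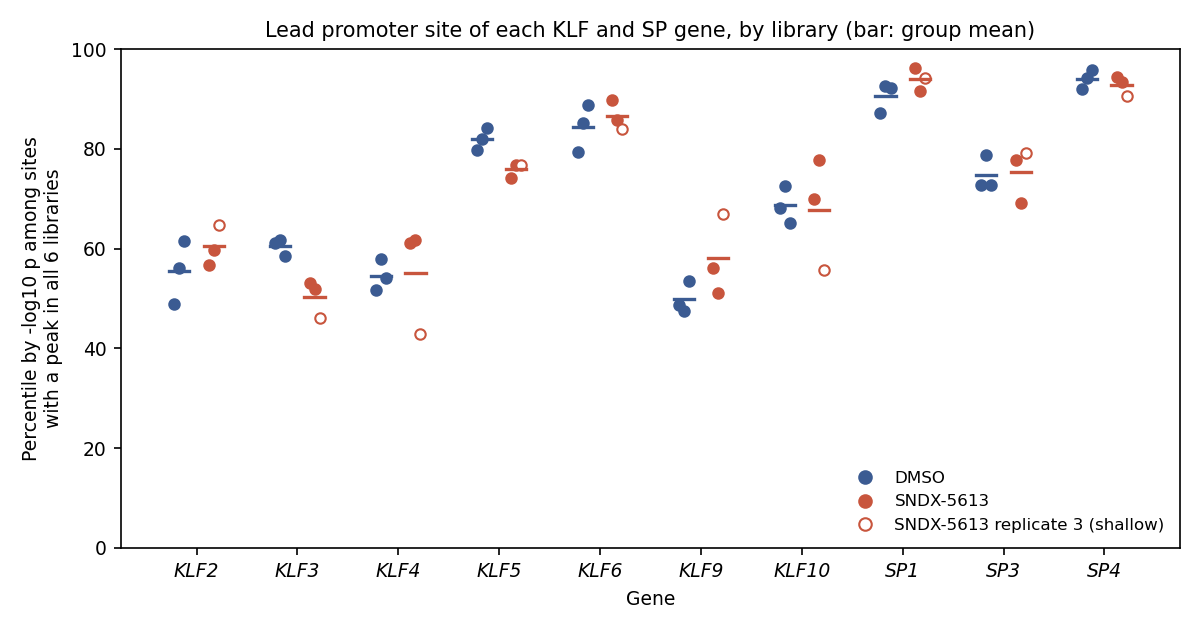
Percentile of the lead promoter site (y axis, 0 to 100, among the 33405 sites shared by all 6 libraries) of each gene in every library, with the mean of each group as a bar; DMSO and SNDX-5613 are colored separately and the shallow SNDX-5613 replicate 3 is open. SP1 and SP4 lie near the top in both groups, and the SNDX-5613 points lie below all DMSO points at KLF3 and KLF5.

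At 2 of the 10 lead promoters, those of KLF5 and KLF3, all SNDX-5613 libraries lay below all DMSO libraries, and at 0 they lay above. Among coding lead promoters the same was seen at 7.44% for lower and 7.16% for higher. KLF5 had percentiles of 79.7, 82.1 and 84.3 in DMSO and 74.2, 76.7 and 76.9 in SNDX-5613, a mean difference of -6.11 points. Its summit, at 140 bp from an annotated start, had a height of 2.51 ± 0.13 (SD, n = 3) times the library median in DMSO and 2.15 ± 0.06 in SNDX-5613, a ratio of 0.855 with no overlap between the groups. KLF3 had 61.1, 61.8 and 58.5 in DMSO and 53.1, 52.0 and 46.1 in SNDX-5613, a mean difference of -10.05 points. The height of this summit, just upstream of a start, was 2.35 ± 0.06 in DMSO and 1.91 ± 0.07 in SNDX-5613, a ratio of 0.814, again without overlap.

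Neither passed limma's moderated test over the 33405 sites (adjusted p = 0.521 for KLF5 and 0.567 for KLF3, Benjamini-Hochberg), and the exact permutation test gave p = 0.1 at each, the smallest that 3 against 3 libraries allow. With the replicate number as a block the adjusted p was 0.557 for KLF5 and 0.609 for KLF3 (limma). SNDX-5613 lay below its same-numbered DMSO library in 3 of 3 pairs at each, which the lack of overlap already fixes under any numbering. An exact paired permutation test on 3 pairs cannot go below p = 0.25. Without the shallow SNDX-5613 replicate 3, sites were ranked among the 59985 that the 5 deeper libraries shared. On that scale the DMSO means were 90.0 at KLF5 and 77.5 at KLF3, compared with 82.0 and 60.5 over all 6. The mean differences were then -3.68 at KLF5 and -4.84 at KLF3, still without overlap. They cannot be set directly against -6.11 and -10.05. When sites were ranked by fold enrichment in place of −log10 p, the KLF3 difference turned to 2.57 points.

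Across all 35 sites with a peak in every library, the SNDX-5613 libraries lay above all DMSO libraries at 3 and below them at 3. The shares over the 33405 sites were 8.54% for higher and 8.08% for lower (16.6% in either direction), so that the 6 of 35 sites were near the background. The median difference over the 35 sites was 1.5 points, with a range of -15.11 to 14.45, compared with -0.093 over the 33405. limma called 0 of the 35, and the lowest adjusted p was 0.463. Over all sites it called 0.0898% as higher and 0.012% as lower. At an unadjusted p under 0.05, 2 of the 35 were higher and 0 lower, with shares over all sites of 5.26% and 4.65%. With the replicate number as a block, limma called 0 of the 35 (0.00898% of all sites), with a lowest adjusted p of 0.427, and 1 of the 35 had an unadjusted p under 0.05 (9.93% of all sites), the intronic site of KLF3 described next.

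These 2 were a site beside SP4 and an intronic site of KLF3. The first lies 114786 bp from the SP4 start, past the end of the gene, and it is a promoter site of DNAH11, which encodes an axonemal dynein heavy chain. Its percentiles were 44.9, 43.8 and 41.6 in DMSO and 56.5, 58.2 and 58.9 in SNDX-5613, and its height was 0.778 ± 0.044 and 1.08 ± 0.07 (SD, n = 3) times the library median, a ratio of 1.39. All SNDX-5613 values lay above DMSO on both scales (adjusted p = 0.463, limma, and 0.509 with the replicate block). When percentiles were taken over all regions of each library, the mean difference at this site was 0.014 points and the groups overlapped. The values were then 77.1, 82.0 and 78.0 in DMSO and 86.1, 85.3 and 65.7 in SNDX-5613, the last in the shallow library. Ranked by fold enrichment, by summit pileup or without the shallow library, the groups did not overlap. The differences were 7.93, 14.81 and 9.91 points, respectively. The KLF3 site, in an intron 2984 bp from the start (chr4:38667124-38667461), had 66.4, 79.5 and 83.5 in DMSO and 83.5, 86.4 and 90.3 in SNDX-5613, and the groups overlapped narrowly (adjusted p = 0.472, limma).

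The other sites without overlap also depended on the scale or lay low in the ranking. At KLF10, a promoter site 57 bp from a start had 56.4, 58.1 and 57.7 in DMSO and 59.7, 66.3 and 67.1 in SNDX-5613, whereas in height the groups overlapped (2.45 ± 0.04 and 2.51 ± 0.12 times the median, SD, n = 3). A site 39699 bp downstream of the KLF6 start (chr10:3740165-3740857) had 10.4, 11.8 and 6.3 in DMSO and 14.7, 15.1 and 13.9 in SNDX-5613. Its heights did not overlap either, at 0.306 ± 0.031 and 0.388 ± 0.025 times the median (SD, n = 3). A KLF3 intron site 8942 bp from the start had 8.5, 3.3 and 8.6 in DMSO and 1.2, 2.1 and 0.5 in SNDX-5613, with overlapping heights. When percentiles were taken over all regions of each library, the mean differences at the KLF10 and KLF6 sites turned to -2.31 and -1.41 points.

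Presence of a peak changed little. A site was counted as gained where it had a peak in 3 SNDX-5613 and 0 DMSO libraries, and 0 of the 119 sites were gained, compared with 0.147% of all sites. In the opposite direction 2 were lost, compared with 1.18%. One was upstream of KLF6 at -42171 bp (chr10:3827323-3827532) and the other upstream of SP1 at -43939 bp (chr12:53336181-53336483), at a promoter of SP7, an osteoblast factor of the same family. Both were among the weakest peaks in DMSO, with percentiles of 0.284, 0.269 and 0.838 at the first and 1.31, 0.042 and 0.165 at the second. The set of gained sites depended on the shallow library: without it, sites at KLF2 (-22673 bp) and SP4 (-17090 bp) counted as gained, compared with 2.43% of sites.

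The strongest site outside any promoter was compared for 9 of the 10 genes. At KLF3, the intron site described above had a mean percentile of 81.6 over the 6 libraries, well above the KLF3 lead promoter. At KLF5, a site 15643 bp downstream of the start had a mean of 55.8, and its groups overlapped. For 7 more genes, this site had means of 44.7 (KLF4), 36.2 (KLF2), 26.1 (KLF6), 23.6 (SP4), 20.7 (SP3), 17.1 (KLF10) and 16.0 (KLF9) over the libraries with a peak. The KLF2 site is nearest to AP1M1, and the SP3 site had a peak in 4 libraries.

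KLF6 had the most sites in its flanks, 19 in all. Of its 24 sites, 7 had a peak in all 6 libraries and another 7 in the 5 deeper ones only. Ranked among the 59985 sites shared by the 5 deeper libraries, 6 of these 14 lay above all DMSO libraries in both SNDX-5613 libraries, and 1 lay below. Over the 59 sites of all 10 genes that the 5 libraries shared, 10 lay above and 7 below, with 14.3% and 14.4% (28.7% in either direction) over all 59985 sites. limma called 0 of the 59 (0.262% of all sites), with a lowest adjusted p of 0.255, and 7 had an unadjusted p under 0.05 (12% of all sites).

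The widest of these differences at KLF6 was at the far upstream site, -40119 bp from the start. Its percentiles in this ranking were 34.6, 46.8 and 47.0 in DMSO and 61.7 and 66.6 in SNDX-5613 (adjusted p = 0.255, limma). In the ranking over all 6 libraries, SNDX-5613 replicate 3 stood at 14.0, below the lowest DMSO value of 14.9, so the third library did not share the difference. The nearer upstream site at -22228 bp went the other way, with 21.7, 22.4 and 30.8 in DMSO and 0.399 and 14.2 in SNDX-5613 (adjusted p = 0.289, limma). Sites downstream of the start at 16869, 18053, 25013 and 39699 bp had higher SNDX-5613 means by 14.6, 16.4, 13.4 and 11.7 points, and one at -25012 bp by 6.99. At 16869 bp, SNDX-5613 replicate 3 stood at 0.629 in the ranking over all 6 libraries, below the DMSO values of 4.76, 5.75 and 3.92, and the mean difference there was 2.41 points. The sites at 18053 and 25013 bp had no peak in that library, and at -25012 bp the groups overlapped in the ranking over all 6. The KLF6 lead promoter, between these sites, overlapped between the groups.

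**Figure D3:**
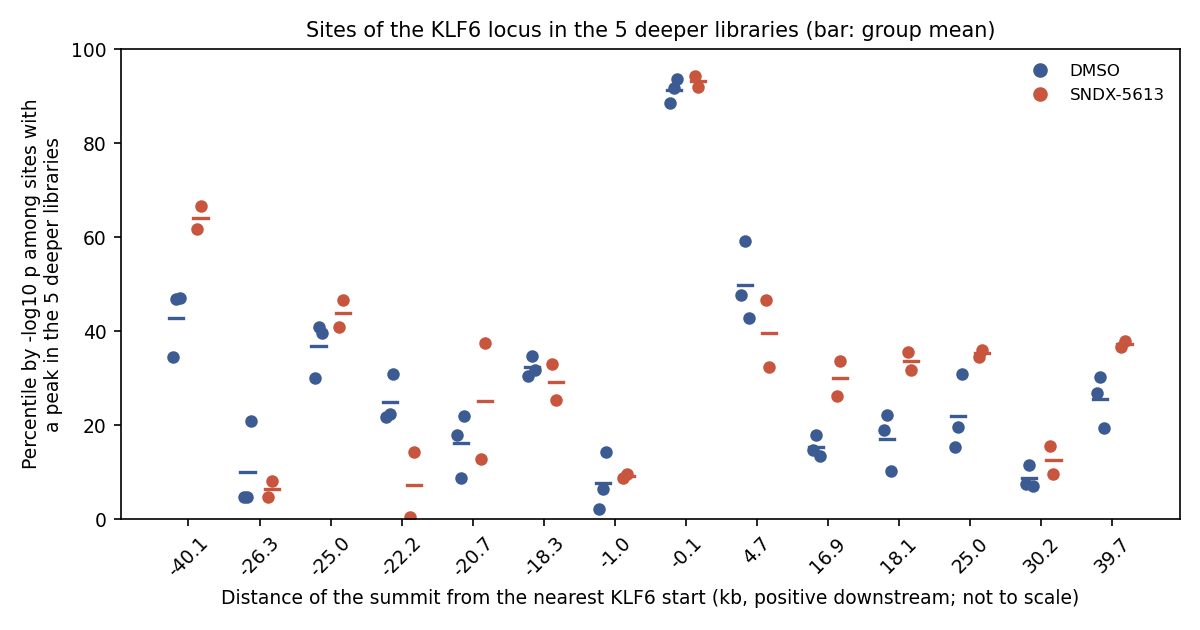
Percentile at KLF6 sites with a peak in each of the 5 deeper libraries (y axis, 0 to 100, among the 59985 sites they share) in order of the distance of the summit from the nearest annotated KLF6 start (x axis, kb, not to scale), 1 point per library and a bar at each group mean, DMSO and SNDX-5613 in separate colors. SNDX-5613 points lie above DMSO at 6 of 14 sites, on both sides of the promoter, and below at 1.

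In the SP4 intron, a site 79612 bp from the start (chr7:21507252-21508082) had 53.7, 63.2 and 44.3 in DMSO and 33.9 and 35.2 in SNDX-5613 in the ranking of 5 libraries (adjusted p = 0.363, limma). No peak was called there in the shallow library.

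Among the other 17 genes of the family, 9 had a promoter peak in all 6 libraries (KLF7, KLF11, KLF13, KLF14, KLF15, KLF16, SP2, SP7 and SP8). Of all protein-coding genes, 64.8% did. None was found in any library at KLF1, the erythroid factor, or at KLF17, KLF18, SP5 and SP6. KLF8 and KLF12 had one in 2 SNDX-5613 libraries each and 0 DMSO libraries, and SP9 in 1 SNDX-5613 library. No share over all coding genes is given for this pattern, so it is not read as a gain. Of the 9 lead promoters, SNDX-5613 lay above DMSO at 2 and below at 1, and limma called 0. The shares over coding lead promoters were 7.16% above and 7.44% below. The SP8 promoter, a limb and forebrain patterning gene, had 2.80, 3.85 and 5.28 in DMSO and 22.6, 26.2 and 25.8 in SNDX-5613, a difference of 20.9 points (adjusted p = 0.107, limma). KLF11, a close relative of KLF10, had 75.2, 80.8 and 77.1 in DMSO and 83.6, 84.8 and 86.6 in SNDX-5613 (adjusted p = 0.444, limma). KLF15, a regulator of gluconeogenesis and amino acid breakdown, had 82.9, 73.9 and 69.9 in DMSO and 68.0, 59.6 and 51.6 in SNDX-5613 (adjusted p = 0.417, limma). At these 3 promoters the groups did not overlap, but none passed the test over all sites.

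**Figure D4:**
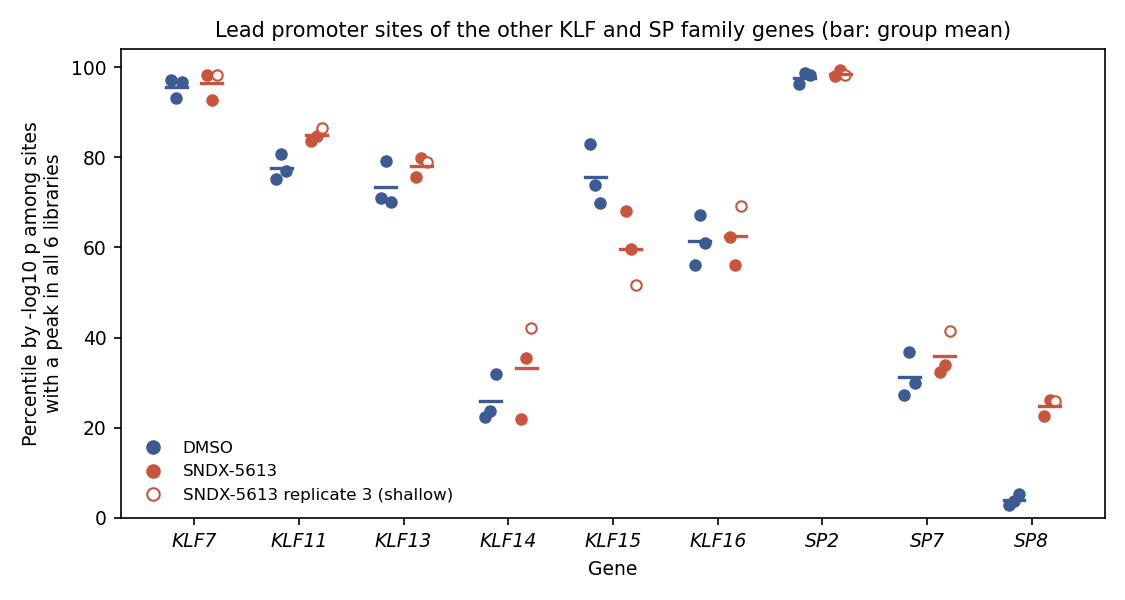
Percentile of the lead promoter site (y axis, 0 to 100, among the 33405 sites shared by all 6 libraries) of the other KLF and SP genes with a promoter peak in every library, 1 point per library (SNDX-5613 replicate 3 open) and a bar at each group mean. SP8 and KLF11 have all SNDX-5613 points above all DMSO points, and KLF15 has them below.

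Cofactors and upstream factors of the family were accessible throughout. All 13 (CTBP1, CTBP2, SIN3A, SIN3B, EP300, CREBBP, KAT2B, WWP1, FBXW7, MAPK7, MEF2A, MEF2C and MEF2D) had a promoter peak in all 6 libraries, as did ACTB and GAPDH. So did 64.8% of all protein-coding genes. SNDX-5613 lay above DMSO at FBXW7, part of a ubiquitin ligase that targets KLF5, and at MEF2A, an activator of KLF2 and KLF4 transcription, with means of 98.4 and 99.4 for the first and 58.7 and 66.1 for the second. Neither passed limma (adjusted p = 0.813 and 0.635), and 0 of the 13 lay below. Among coding lead promoters, 7.16% lay above and 7.44% below.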

How the data were processed

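ATAC-seq was performed on HLF cells with the Omni-ATAC protocol. Per the labels and the study's methods, reads were trimmed (Trim Galore 0.6.7), aligned to hg38 (Bowtie2 2.3.4.1), marked for duplicates (Picard 2.20.0), and peaks were called with MACS2 in each library; other tools named in the submitters' notes are SAMtools and deepTools 3.5.4. The deposited peak lists give, for each summit, the fold enrichment over background, the −log10 p and the −log10 q as the authors' caller wrote them, a display score and the offset of the summit. Read counts were not used here. The consensus peak files, which carry no value per library, were not used.

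Regions were kept on chromosomes 1 to 22, X and Y, with the strongest summit of each, and merged over the 6 libraries where they shared at least 1 bp. Percentiles were ranks of −log10 p within a library. SNDX-5613 and DMSO were compared with limma 3.58.1 in R 4.3.3 (trended empirical Bayes, two-sided, adjusted p under 0.05 over all sites) and with exact two-sided permutation tests. No interval was computed for a single peak. Summit pileups were solved from fold enrichment and −log10 p (within 0.001) for 100% of summits tried, leaving out those with −log10 p of 290 or more or fold of 1.5 or less. The steps were tested on simulated data. The 10 genes, gene lists, tests and alternatives were chosen with earlier results of these data known. Named were all 10 genes with their lead promoter site, gained and lost sites, sites called by limma, those without overlap, and each gene's strongest site outside promoters, of which 1 is not reported here. KLF6 sites, the SP4 intron site in the 5 deeper libraries and the KLF3 intron site at an unadjusted p under 0.05 were named after their values were seen, as was the second SP3 promoter site. Sequences are from hg38 and RefSeq. Other alternatives were another ranking column, other site definitions, fewer libraries, array weights and a replicate block. If the numbers mark the divided dishes of the study's methods, they pair the samples. Blocked values are given for the KLF5 and KLF3 lead promoters, the second SP3 promoter site, the site beside SP4 and the counts over the 35 sites. For the other named sites only unblocked values are given. Correlations of the deviations from the group means were 0.031, 5.9e-05 and 0.018 for same-numbered libraries. For differently numbered libraries they ranged from -0.065 to 0.039.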

Additional observations from a re-analysis of the deposited data

How the results depend on the processing

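The number of sites called by limma was 0 of those tested under every alternative that was run, and the numbers at an unadjusted p under 0.05 ranged from 0 to 7. Without overlap were 3 higher and 3 lower sites. Each alternative was counted afresh, so the sites need not be the same. There were 3 higher and 0 lower when ranked by fold enrichment, and also when a region had to cover 50% of its site. Percentiles over all regions of the library gave 0 higher and 2 lower, and 10 kb around the genes gave 1 higher and 3 lower. By fold enrichment the groups overlapped at the KLF6 site at 39699 bp and the KLF10 site at -57 bp. Both were higher in the main ranking. The sites with a peak in every library numbered 13 at 50% cover and 21 within 10 kb, and 5 genes had a promoter peak in every library at 50% cover. Lost sites numbered 0 at −log10 q of at least 3, 0 within 10 kb, and 1 with equal numbers of regions, where 1 was gained.

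Ranking by fold enrichment moved the lead promoter differences of KLF3 (2.568), KLF6 (12.65), KLF9 (15.86), SP1 (16.49), SP3 (12.55) and SP4 (11.35). Ranking by summit pileup gave -5.965 at KLF3, -4.071 at KLF5 and 0.009695 at SP1. Percentiles over all regions of the library gave -3.177 at KLF2, -8.433 at KLF4, -1.663 at KLF9 and 0.2765 at SP1, and turned the KLF6 site at 39699 bp to -1.409 and the KLF10 site at -57 bp to -2.306. The cause was not tested.

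Leaving out 1 library at a time gave 35 to 59 sites in every library, 3 to 10 higher, 3 to 7 lower, 0 to 2 gained and 2 to 6 lost. The widest counts of shared, higher and gained sites came without SNDX-5613 replicate 3. The 7 lower sites came without DMSO replicate 1, DMSO replicate 3 or SNDX-5613 replicate 3, and the 6 lost sites without SNDX-5613 replicate 1. With fewer libraries, groups fail to overlap more often at any site. Over all sites without SNDX-5613 replicate 3, 14.3% were higher and 14.4% lower, compared with 8.54% and 8.08% over all 6 libraries. In that setting 2.43% of sites were gained and 1.23% lost. For the other omissions no share over all sites is given, so their counts are not read as a result about these genes. The ranges of the lead promoter differences were -11.4 to -4.835 at KLF3, -7.162 to -3.679 at KLF5 and 2.773 to 11.52 at KLF9. The smallest size in each came without SNDX-5613 replicate 3. That setting ranks sites among the 59985 that the 5 deeper libraries share, so its differences are on another scale.

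The labels give both groups replicate numbers 1 to 3, which may mark the dish that was divided between the treatments. With the replicate block, limma called 0 of the sites and 1 had an unadjusted p under 0.05, compared with 2 without it. SNDX-5613 replicate 3 lacked a peak at 24 sites where all the deeper libraries had one, and its weakest called summits stood 14.22 times above background. Whether its depth accounts for the missing peaks was not tested.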
